A study of Mus musculus with 24 samples.

Results

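Tissue macrophage genes were examined in the distal small intestine of mice that received a control or a high-fat diet with or without metformin, an oral antidiabetic drug. The set was defined by symbol and held 10 of the 55536 genes in the read-count table: Adgre1, Cx3cr1, Cd68, Csf1r, C1qa, C1qb, C1qc, Mrc1, Cd163 and Lyz2. All 10 had reads in each of the 24 libraries and all 10 passed the filter on low counts, which left 14076 genes for testing. Averages over the 6 libraries of a group were higher with metformin than without it for every member on the control diet and for all but Cx3cr1 on the high-fat diet. Yet none of the members had a false discovery rate (FDR) under 0.05 in any contrast. The same held for all tested genes, of which 0 of 14076 had such an FDR in each of the 4 contrasts. The groups overlapped for every member in all 4 contrasts, and the share of all genes without overlap was not determined.

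Macrophages of the intestine live in the connective tissue under the epithelium and in the muscle layer, where they take up microbes and dying cells. Most of them are renewed from blood monocytes, and their survival depends on signals through the receptor encoded by Csf1r. They are among the main producers of C1q, the recognition molecule of the classical complement pathway, which is assembled from the chains encoded by C1qa, C1qb and C1qc. In pieces of whole tissue, fewer macrophages and less RNA per macrophage cannot be told apart.

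The animals were C57BL/6N mice, an inbred laboratory strain, 4 to 5 weeks old at the start. Fat made up 10% of the energy in the control diet (CD) and 60% in the high-fat diet (HFD). After 20 weeks on the diet, the CDmetf and HFDmetf groups received metformin in the drinking water at 50 mg/kg/day for 10 weeks while the CD and HFD groups did not. Each group had 6 animals with 1 library each, 3 labelled male (M1 to M3) and 3 labelled female (F1 to F3), and animals of the same sex and replicate number in different groups were treated as pairs. As a model this is diet-induced obesity in 1 inbred strain, and each library holds all cell types of the tissue piece.

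The depth was 1829690 to 40606442 reads assigned to genes per library, and reads on the 10 members from 359 to 9840. Libraries with the labels HFD M2 and HFD F2 carried sex-linked transcripts against their labels (3355 Xist reads and 0 reads of Y-linked genes in the former, 1 and 423 in the latter), so results that rest on them are given with and without them. In CD M3, 10 genes took 85.4% of the reads, and in HFDmetf F2 36.6%. The TMM scaling factor of CD M3 was 0.189, so its 22413162 reads had the effective size of 4232409. The ileal markers Fabp6, Slc10a2, Slc51a and Slc51b had reads in all groups, with Fabp6 medians from 776 to 1521 CPM, read counts scaled to the size of the library, and single libraries as low as 0.817. Libraries fell into 10 with 9261065 reads or more and 14 with 5186123 or fewer. The deeper class held 4 of 6 CD libraries but 2 of 6 in each other group, and 7 of 12 libraries labelled female but 3 of 12 labelled male.

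Expression is given as CPM after TMM scaling, which corrects library sizes for differences in composition. Compared between genes per kilobase of annotated exon, Lyz2, which encodes the lysozyme of myeloid cells, was the most abundant member, with a median of 55.2 CPM per kilobase over 24 libraries (range 29.3 to 109). C1qa and C1qb followed with medians of 27.4 and 25.1 (ranges 15 to 48.7 and 14.3 to 47.8), which overlapped almost entirely. C1qc had a median of 13.5, Cd68, a lysosomal glycoprotein of phagocytes, 6.09, and Csf1r 5.63, and the ranges of Cd68 and Csf1r overlapped. Cx3cr1, the fractalkine receptor, Adgre1, which encodes the F4/80 antigen, and Mrc1, the mannose receptor CD206, lay together at 3.11, 2.95 and 2.93. Cd163, the scavenger receptor for haptoglobin-haemoglobin complexes, was lowest at 0.655 CPM per kilobase, with 3 to 225 reads per library. The members thus spanned from a median of 3.58 CPM for Cd163 to 72.6 CPM for Lyz2 when length was not considered.

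**Figure D1:**
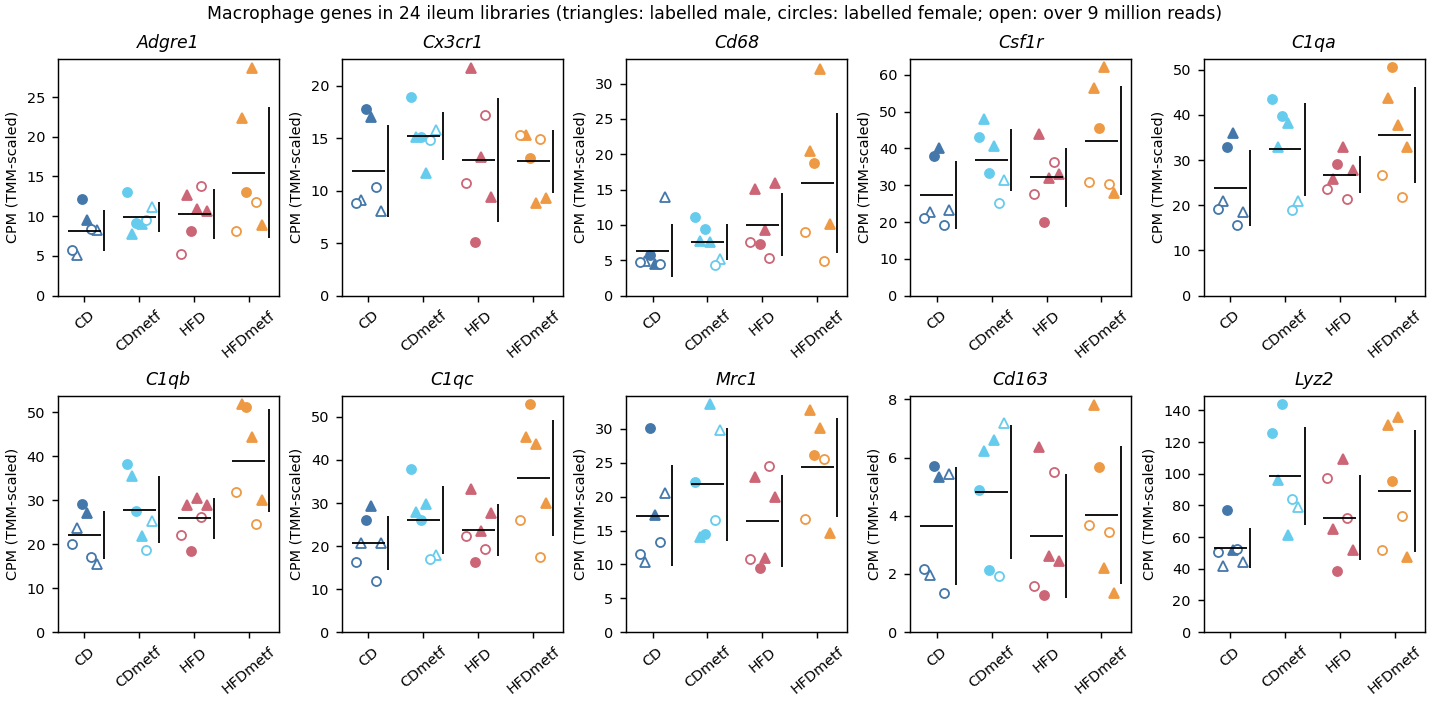
TMM-scaled CPM (vertical axis, from 0) of each macrophage gene in the 6 libraries of each group, with a horizontal line at the mean and a vertical bar of 1 SD on either side. Groups overlap in every panel, the HFDmetf libraries M1 and M2 hold the highest Adgre1, Cd68 and Csf1r values, and open symbols (the deeper class of libraries) lie low for C1qa.

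The genes of the 3 C1q chains lie side by side on the minus strand of chromosome 4 (GRCm38), with C1qb at 136880129 to 136886187, C1qc at 136889804 to 136893065 and C1qa at 136895917 to 136898803. They are shown here because they are neighbours in the genome whose levels varied closely together. Over the 24 libraries, the Pearson correlation of log2 CPM was 0.87 between C1qb and C1qc, 0.86 between C1qa and C1qc and 0.79 between C1qa and C1qb, and it was 0.81, 0.84 and 0.74 after the group means were removed. For the same pairs it was 0.57, 0.87 and 0.84 in the 10 deeper libraries and 0.88, 0.66 and 0.63 in the other 14. Within a library, the ratio of C1qb to C1qa ranged from 0.575 to 1.23 with a median of 1.03, and that of C1qc to C1qa from 0.559 to 1.29 with a median of 0.882.

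Promoter sequences from RefSeq on GRCm38.p6 were at hand for 7 of the 10 members. Their 250 bases before the transcription start were searched on both strands for GAGGAA, the core of sites bound by PU.1, the transcription factor of myeloid cells encoded by Spi1. The motif was found in 4 of these 7 (C1qb, C1qc, Cd68 and Mrc1) and in 23.3% of the 32851 promoters of the table, and a match in a window of this length is a description and not a site. Part of the C1qc window is exon in another annotated transcript and is left out, so the stretches shown are chr4:136886201-136886450 for C1qb and chr4:136893066-136893164 for C1qc, both read on the minus strand, with the motif in capitals, 30 and 193 bases before the RefSeq start.
C1qb: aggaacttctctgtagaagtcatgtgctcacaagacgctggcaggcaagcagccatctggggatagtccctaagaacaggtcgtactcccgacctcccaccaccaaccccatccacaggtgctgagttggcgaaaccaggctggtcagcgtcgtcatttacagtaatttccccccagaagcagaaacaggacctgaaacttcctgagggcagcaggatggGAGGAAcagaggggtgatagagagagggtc
C1qc: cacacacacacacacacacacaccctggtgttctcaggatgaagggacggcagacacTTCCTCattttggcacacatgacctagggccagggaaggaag

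Lyz2 has a near-identical neighbour, Lyz1, the lysozyme of Paneth cells, which bears on how its reads can be counted. Both lie on the minus strand of chromosome 10, Lyz2 at 117277331 to 117282321 and Lyz1 at 117287797 to 117292868. Their coding sequences of 447 bases differ at 22 positions (95.1% identity) in the GENCODE M21 transcripts. The first 90 coding bases, within the first exon of each gene (chr10:117282153-117282242 and chr10:117292749-117292838), hold 7 of these differences, shown in capitals.
Lyz2: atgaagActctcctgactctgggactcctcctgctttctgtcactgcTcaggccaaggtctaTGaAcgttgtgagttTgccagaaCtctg
Lyz1: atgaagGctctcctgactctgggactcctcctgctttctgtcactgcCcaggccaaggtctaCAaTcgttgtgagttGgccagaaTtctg
Of the 1217 windows of 100 bases in the Lyz2 transcript, the length of 1 read, 1.97% were also found without mismatch in the Lyz1 transcript, and of 1267 windows of 50 bases 15.4%. Lyz1 was measured at 1930 to 10353 CPM, 26.5 to 183 times the Lyz2 level of the same library (median 62.2), so that a small share of misassigned Lyz1 reads would weigh on Lyz2. The log2 CPM values of the pair had a correlation of 0.03 over the 24 libraries.

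The first question was whether metformin altered these genes on the control diet (CDmetf vs. CD). All 10 members had a log2 fold change (logFC) above 0, with a median of 0.38 against 0.00 over all tested genes. Lyz2 ranged from 42 to 77.1 CPM in CD (median 51.2) and from 61.6 to 144 CPM in CDmetf (median 89.9). Every CDmetf library was above 5 of the 6 CD libraries, and Lyz2 was higher with metformin in 6 of 6 pairs (logFC = 0.89, SE 0.259, unadjusted p = 0.0024, FDR = 0.94, edgeR quasi-likelihood test). Lyz1 had a logFC of -0.25 (FDR = 0.988) in the same contrast.

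C1qa ranged from 15.6 to 35.9 CPM in CD (median 20.1) and from 18.9 to 43.5 CPM in CDmetf (median 35.6). It was higher with metformin in 6 of 6 pairs (logFC = 0.45, SE 0.159, unadjusted p = 0.00952, FDR = 0.94). Csf1r ranged from 19.2 to 40.1 CPM in CD and from 25.2 to 48 CPM in CDmetf, and was higher in 5 of 6 pairs (logFC = 0.45, SE 0.198, unadjusted p = 0.0325, FDR = 0.94). The other 7 members had logFC values from 0.22 (Cd68) to 0.45 (Cd163) and unadjusted p-values above 0.05. These 3 members at an unadjusted p under 0.05 stand against 2.74% of the 14076 tested genes that were higher at that level, while at FDR under 0.05 the share of all genes was 0%.

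The depth classes are unequal in this contrast, and C1qa lay lower in the deeper libraries. It ranged from 15.6 to 26.6 CPM in the 10 deeper libraries and from 25.8 to 50.6 CPM in the other 14, and its correlation with log2 depth was -0.80. C1qc (-0.65), C1qb (-0.54) and Cd68 (-0.51) were the other members at or below -0.5, as were 4.92% of all tested genes. Csf1r (-0.46) and Adgre1 (-0.29) lay between these and Cx3cr1 (0.05), Mrc1 (-0.08), Cd163 (-0.09) and Lyz2 (-0.13), which had weaker correlations. The median of Csf1r was 26.4 CPM in the deeper libraries and 40.4 CPM in the others. All these correlations share the same libraries and scaling. With depth class as a covariate, 1 member in place of 3 had an unadjusted p under 0.05 in CDmetf vs. CD, namely Lyz2 (logFC = 0.85, unadjusted p = 0.00543, FDR = 0.974), and the logFC of C1qa was 0.23 (unadjusted p = 0.0552). The class of CD M3 decided this: it counts as deep by its reads but not by its effective size, and its C1qa level was 18.4 CPM. With classes set by effective size (9 and 15 libraries), C1qa ranged from 15.6 to 26.6 and from 18.4 to 50.6 CPM, its correlation with log2 effective size was -0.71, and with that class as a covariate 3 members had an unadjusted p under 0.05 in CDmetf vs. CD (C1qa logFC = 0.34, unadjusted p = 0.00949, FDR = 0.884). Over all genes, in either direction, 634 of 14402 had an unadjusted p under 0.05 with the class by reads as a covariate. With the class by effective size there were 788 of 14402, against 724 of 14076 with neither. Among the 14 libraries shallower by reads (2 of CD), the median logFC of the members was -0.07 and 3 of 10 were above 0. Among the 15 shallower by effective size it was 0.07 and 6 of 10 were above 0.

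**Figure D2:**
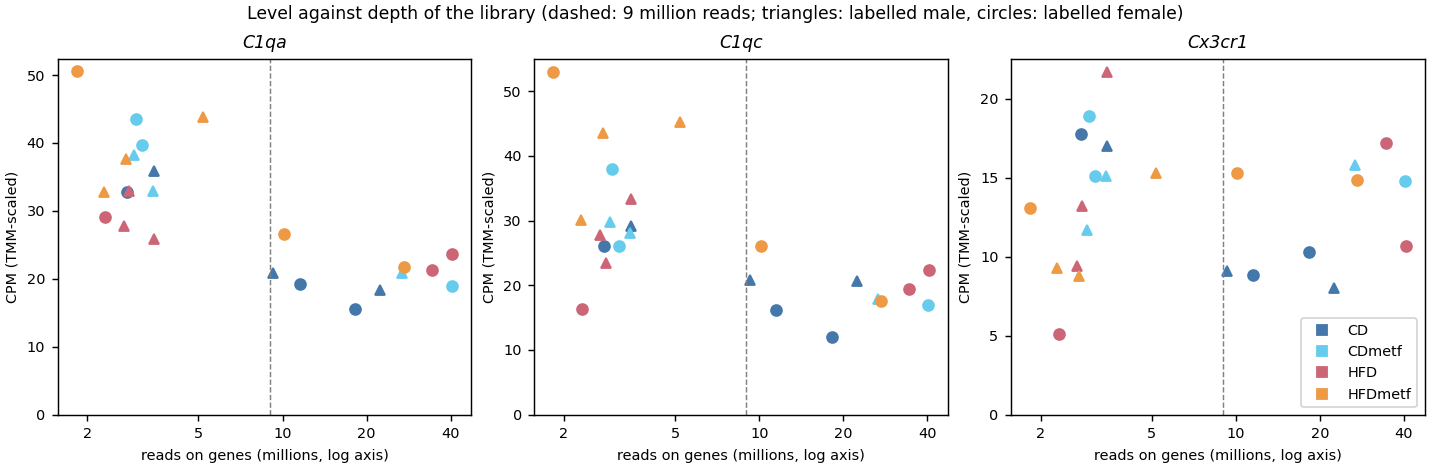
TMM-scaled CPM (vertical axis, from 0) against reads on genes (horizontal log axis) for C1qa, C1qc and Cx3cr1 in 24 libraries, coloured by group, with a dashed line between the depth classes. C1qa lies at 15.6 to 26.6 CPM to the right of the line and at 25.8 to 50.6 CPM to its left, whereas Cx3cr1 spans similar values on both sides.

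The second question was whether metformin altered the genes on the high-fat diet (HFDmetf vs. HFD). The median logFC of the members was 0.44 against 0.03 over all tested genes, with 9 of 10 above 0. The 3 C1q genes had the smallest p-values. C1qb ranged from 18.4 to 30.6 CPM in HFD (median 27.6) and from 24.7 to 52 CPM in HFDmetf (median 38.1), was higher in 5 of 6 pairs, and had a logFC of 0.53 (SE 0.181, unadjusted p = 0.00764, FDR = 0.64). Of the HFDmetf libraries, 4 of 6 lay above all HFD libraries.

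C1qc ranged from 16.3 to 33.3 CPM in HFD (median 22.9) and from 17.5 to 52.9 CPM in HFDmetf (median 36.9), and had a logFC of 0.51 (SE 0.204, unadjusted p = 0.0214, FDR = 0.64). C1qa ranged from 21.3 to 32.9 CPM in HFD and from 21.8 to 50.6 CPM in HFDmetf and was higher in 6 of 6 pairs (logFC = 0.37, SE 0.16, unadjusted p = 0.0318, FDR = 0.64). Adgre1, Cd68 and Mrc1 had logFC values of 0.56, 0.56 and 0.55 with larger errors (SE 0.285, 0.356 and 0.299), and Cx3cr1 one of -0.02. The 3 members higher at an unadjusted p under 0.05 compare with 3.79% of all tested genes, and the share of all genes at FDR under 0.05 was 0%.

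These values rested in part on the 2 libraries whose labels and sex-linked transcripts disagreed. The library labelled HFD F2 held the lowest HFD value of 7 members (Cx3cr1, Csf1r, C1qb, C1qc, Mrc1, Cd163 and Lyz2). Without both, none of the members had an unadjusted p under 0.05 in HFDmetf vs. HFD, and the median logFC was 0.20 in place of 0.44, with C1qb at 0.37 (unadjusted p = 0.0691). With depth class as a covariate the C1q genes kept unadjusted p-values under 0.05 (C1qb logFC = 0.49, C1qc 0.46, C1qa 0.31). Among the 14 shallower libraries, which include 4 of each of these groups, the median logFC was 0.60 and 5 members had an unadjusted p under 0.05, with a smallest FDR of 0.277. In either direction, 340 of 15044 genes had such a p without HFD M2 and HFD F2 as labelled, against 931 of 14076 in the main fit. There were 911 of 14402 with the depth covariate and 2111 of 13898 among the shallower libraries. The member counts thus rose and fell with those of all genes.

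The spread within HFDmetf differed between members. The highest value was 6.56 times the lowest for Cd68, 5.87 times for Cd163 and 3.5 times for Adgre1. It was 2.23 times the lowest for Csf1r and 1.74 times for Cx3cr1, the smallest ratio of a member. Adgre1 was measured at 22.4 and 28.6 CPM in HFDmetf M1 and M2 and at 8.16 to 13.1 CPM in the other 4 HFDmetf libraries. Cd68 was measured at 20.5, 32 and 18.8 CPM in HFDmetf M1, M2 and F2, against 4.88 to 10.2 CPM in M3, F1 and F3. Csf1r followed the same order, with 56.3, 62.1 and 45.5 CPM in M1, M2 and F2 and 27.9 to 30.8 CPM in the others. The summed level of the 10 members was 427, 425 and 373 CPM in these 3 libraries, above each of the other 21, which lay between 154 and 359 CPM.

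Markers of other cells moved with these libraries. The summed level of 7 adipocyte markers was 452, 284 and 456 CPM in HFDmetf M1, M2 and F2 and 62 to 106 CPM in M3, F1 and F3. Over the whole series the adipocyte sum ranged from 49.2 to 422 CPM in CD, 52.1 to 371 in CDmetf, 51.9 to 213 in HFD and 62 to 456 in HFDmetf, and CD M3 and CD F2 combined an adipocyte sum of 422 and 421 CPM with member sums of 179 and 275 CPM. Leptin (Lep), Cfd and Retn were at 0 in at least 1 library of HFD and of HFDmetf. The summed level of 10 smooth muscle markers was 1612 to 3773 CPM in CD, 2132 to 4992 in CDmetf, 1819 to 3012 in HFD and 1830 to 4131 in HFDmetf. With an adipocyte marker score as a covariate, the median logFC in HFDmetf vs. HFD was 0.36 and 2 members had an unadjusted p under 0.05 (C1qb, logFC = 0.48, unadjusted p = 0.013, and C1qc, logFC = 0.43, unadjusted p = 0.0351). With the smooth muscle score, the median logFC was 0.32 and the count was also 2. Over all genes, in either direction, 956 of 14402 had such a p with the adipocyte score and 268 of 14855 with the smooth muscle score. Without either score there were 931 of 14076.

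**Figure D3:**
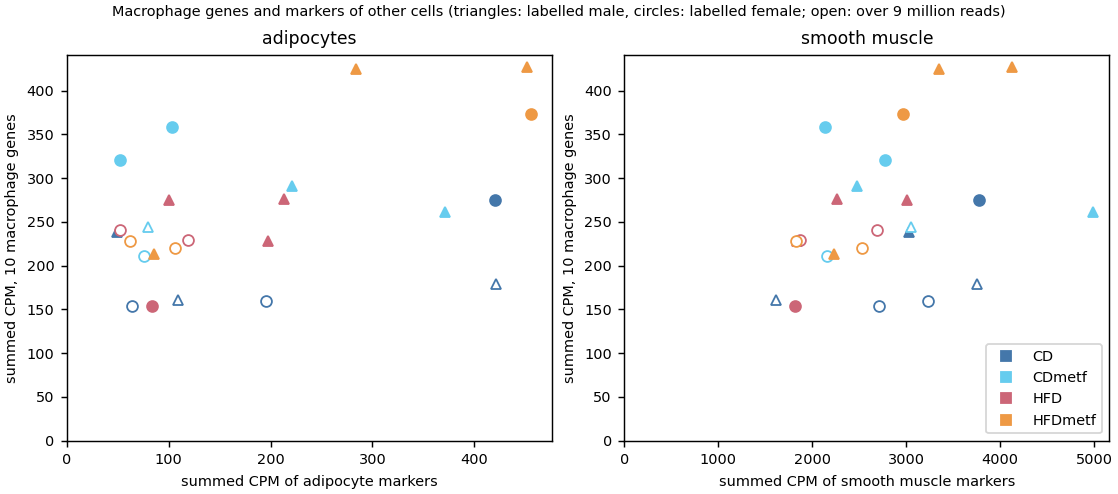
Summed CPM of the 10 macrophage genes (vertical axis) against the summed CPM of 7 adipocyte markers (left) and 10 smooth muscle markers (right) in 24 libraries, coloured by group. The 3 HFDmetf libraries at 373 to 427 CPM on the vertical axis have adipocyte sums of 284 to 456 CPM, and 2 CD libraries reach adipocyte sums of 421 and 422 CPM with member sums of 275 and 179 CPM.

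The third question was whether the diet altered the genes without metformin (HFD vs. CD), a contrast that shares its CD and HFD libraries with the contrasts above. All 10 members had a logFC above 0, from 0.01 for Mrc1 to 0.59 for Cd68, with a median of 0.26 against 0.00 over all genes. None had an unadjusted p under 0.05, a level at which 2.59% of all genes were higher, and the share of all genes at FDR under 0.05 was 0%. Cd68 ranged from 4.41 to 13.9 CPM in CD (median 4.83) and from 5.27 to 15.9 CPM in HFD (median 8.37), and was higher in 6 of 6 pairs (logFC = 0.59, SE 0.359, unadjusted p = 0.115, FDR = 1). CD M3 held the 13.9 CPM, and the other 5 CD libraries lay between 4.41 and 5.7 CPM. Without CD M3, the logFC of Cd68 was 0.97.

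Lyz2 had a logFC of 0.47 (unadjusted p = 0.0838) and Csf1r one of 0.31 (unadjusted p = 0.132). Without the library labelled HFD M2 and the one labelled HFD F2, the median logFC in HFD vs. CD was 0.48. In that fit 4 members had an unadjusted p under 0.05: Csf1r (logFC = 0.60, unadjusted p = 0.00404), C1qc (0.52, unadjusted p = 0.0144), Lyz2 (0.56, unadjusted p = 0.0367) and C1qb (0.41, unadjusted p = 0.0465). Over all genes, in either direction, 592 of 15044 had such a p in that fit, against 652 of 14076 with all libraries. Among the libraries shallower by reads the median logFC was -0.16, with 3 of 10 members above 0, and among those shallower by effective size it was 0.00, with 5 above 0.

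The fourth question was the diet contrast under metformin (HFDmetf vs. CDmetf). Of the members, 7 had a logFC above 0 and 3 below 0 (Cx3cr1 -0.24, Lyz2 -0.15 and Cd163 -0.13), with a median of 0.18 against 0.03 over all genes. Cd68 ranged from 4.39 to 11.1 CPM in CDmetf (median 7.65) and from 4.88 to 32 CPM in HFDmetf (median 14.5), and was higher in 5 of 6 pairs (logFC = 0.93, SE 0.361, unadjusted p = 0.0172, FDR = 0.599). C1qb had a logFC of 0.46 (SE 0.179, unadjusted p = 0.0177, FDR = 0.599). Adgre1 and C1qc had logFC values of 0.59 and 0.42 (unadjusted p = 0.0509 and unadjusted p = 0.0505). The 2 members higher at an unadjusted p under 0.05 compare with 3.83% of all genes, and the share of all genes at FDR under 0.05 was 0%. In this contrast Cd68 and Lyz2 thus lay on opposite sides of 0.

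**Figure D4:**
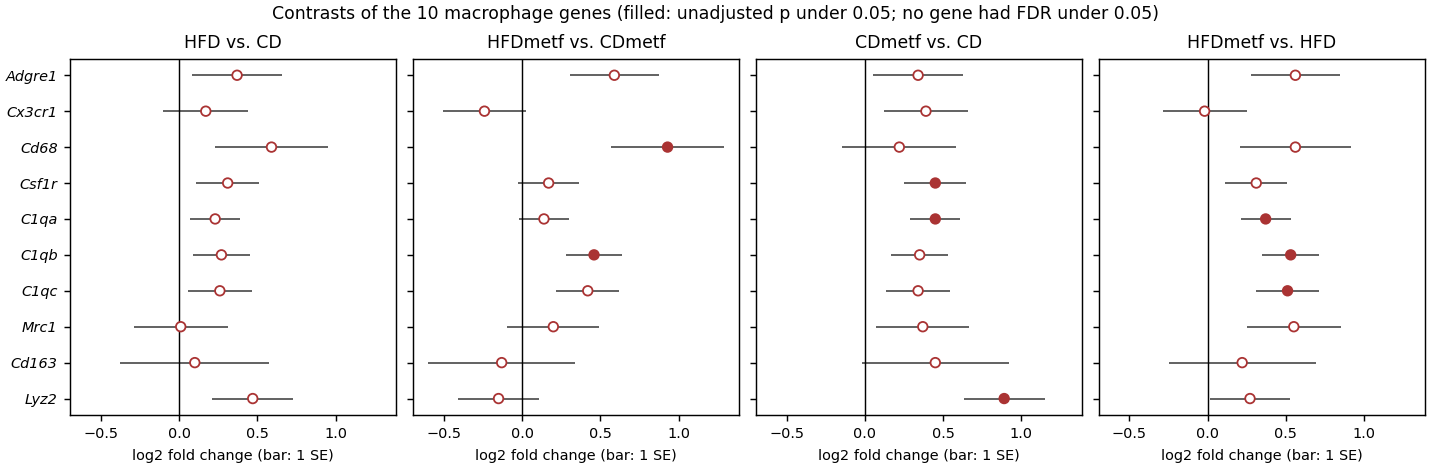
log2 fold change (horizontal axis) with a bar of 1 SE on either side for the 10 macrophage genes in each of the 4 contrasts, filled where the unadjusted p was under 0.05. Values lie to the right of 0 for all 10 genes in HFD vs. CD and in CDmetf vs. CD, and the filled points are Cd68 and C1qb in HFDmetf vs. CDmetf, Csf1r, C1qa and Lyz2 in CDmetf vs. CD and the C1q genes in HFDmetf vs. HFD.

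The difference between the metformin effects on the 2 diets was tested as an interaction. It ranged from -0.62 (Lyz2, SE 0.365, unadjusted p = 0.102, FDR = 0.799) to 0.34 (Cd68, SE 0.507), with 5 members above and 5 below 0. None had an unadjusted p under 0.05, where 3.04% of all genes were higher, and 0% of genes had an FDR under 0.05. Without both HFD M2 and HFD F2 as labelled the median interaction was -0.20 in place of 0.04, and Lyz2 had an unadjusted p under 0.05 (logFC = -0.72, unadjusted p = 0.0453, FDR = 0.943). Of all genes, 720 of 15044 had such a p in that fit in either direction, against 849 of 14076 with all libraries. A dependence of the metformin effect on the diet was not shown for any member at FDR under 0.05.

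Between the sexes as labelled, 8 members had a logFC above 0 for male vs. female, with a median of 0.23. Cd68 ranged from 4.52 to 32 CPM in the 12 libraries labelled male (median 9.7) and from 4.39 to 18.8 CPM in the 12 labelled female (median 6.49), with a logFC of 0.67 (SE 0.255, unadjusted p = 0.0157, FDR = 0.606). C1qc had a logFC of 0.31 (SE 0.143, unadjusted p = 0.0394, FDR = 0.667), and Lyz2 had the lowest logFC, -0.10. These 2 members compare with 4.62% of all genes that were higher at an unadjusted p under 0.05, and 1 gene (0.0071%) had an FDR under 0.05. Without both HFD M2 and HFD F2 as labelled, 3 members had an unadjusted p under 0.05 (Cd68, logFC = 0.68, unadjusted p = 0.017, C1qc, 0.30, unadjusted p = 0.0264, and Csf1r), the smallest FDR of a member was 0.67, and 8 genes in all had an FDR under 0.05. With depth class as a covariate, by reads or by effective size, none of the members had an unadjusted p under 0.05 for sex. None had one without CD M3 either, where Cd68 had a logFC of 0.46 (unadjusted p = 0.0539). Over all genes, in either direction, 424 and 389 of 14402 had such a p with the depth covariates and 943 of 14402 without CD M3. There were 1014 of 15044 without HFD M2 and HFD F2 as labelled, and 1023 of 14076 with all libraries and no depth covariate. The differences of the 4 contrasts between the sexes were tested in a model of 14402 genes, and 0% of genes, and none of the members, had an FDR under 0.05 in any of the 4. The smallest p of a member was that of Adgre1 in HFDmetf vs. CDmetf (male minus female logFC = 1.08, SE 0.52, unadjusted p = 0.0511, FDR = 0.938). Without both HFD M2 and HFD F2 as labelled it was that of Lyz2, in HFDmetf vs. CDmetf (0.99, SE 0.392, unadjusted p = 0.0223, FDR = 0.837) and in HFDmetf vs. HFD (0.96, SE 0.439, unadjusted p = 0.0427, FDR = 0.995), and 1 gene, no member, had an FDR under 0.05.

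The members varied together across libraries, although unevenly. Of their 45 pairwise correlations over 24 libraries, 44 were above 0, with a median of 0.53 and a range from -0.09 (Cx3cr1 and Cd68) to 0.87 (C1qb and C1qc). Csf1r was closest to the mean z-score of the other members (r = 0.95), and Cx3cr1 was farthest (0.46). Besides the C1q genes, Mrc1 correlated with Adgre1 (0.74) and Cd163 (0.72), and Csf1r with C1qc (0.85) and C1qb (0.84). Cd68 had a correlation of 0.78 with C1qc and of 0.17 with Cd163. Within the depth classes some of these values differed. In the 10 deeper libraries and the other 14, C1qb with C1qc had 0.57 and 0.88, and Adgre1 with C1qc -0.19 and 0.70. Cx3cr1 with Cd68 had -0.30 and -0.13, and Mrc1 with Adgre1 0.91 and 0.63. All these values share the libraries, their depth and their scaling.

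**Figure D5:**
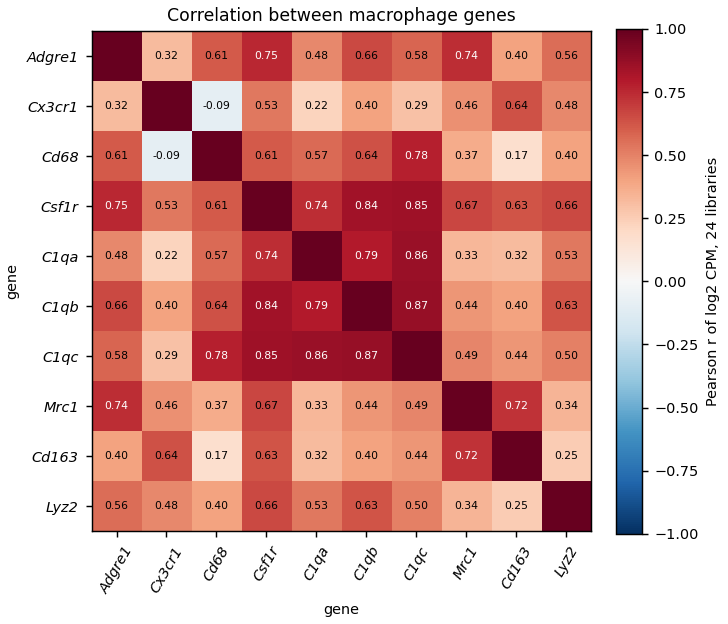
Pearson correlation of log2 CPM over 24 libraries for each pair of the 10 macrophage genes (both axes), printed in each cell and coloured from -1 to 1. The block of Csf1r and the C1q genes reaches 0.74 to 0.87, and Cx3cr1 with Cd68 is the single pair below 0, at -0.09.

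The 10 tested genes outside the set whose log2 CPM was most like the mean z-score of the members were Sirpa (r = 0.91), Mmp14 (0.90), Pltp (0.88), Mmp2 (0.87), Fbln5, Col6a2, Pdgfrb, Lrrc32 and Vim (0.86 each) and Axl (0.85). Sirpa encodes a receptor of myeloid cells for CD47, and Axl a receptor tyrosine kinase for Gas6. Several of the others are known from connective tissue, Pdgfrb from pericytes and fibroblasts, Col6a2 and Fbln5 as matrix proteins and Mmp2 and Mmp14 as matrix metalloproteinases. In the 10 deeper libraries the correlation ranged from 0.59 (Vim) to 0.94 (Sirpa). In CDmetf vs. CD the logFC of Sirpa was 0.56 (unadjusted p = 0.0115), and in HFDmetf vs. HFD that of Pltp was 0.93 (unadjusted p = 0.0123) and that of Axl 0.62 (unadjusted p = 0.0096). Mmp14, Col6a2, Pdgfrb, Lrrc32 and Vim had unadjusted p-values above 0.05 in both contrasts, and no gene had an FDR under 0.05. As the 10 genes were picked in these libraries for their likeness to the members, their fold changes are no separate evidence.

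Other macrophage genes were read from lists chosen as background, of which no gene had an FDR under 0.05 in any of the 4 contrasts. Of 20 further macrophage genes 18 were tested, and 15, 15, 14 and 10 had a logFC above 0 in HFD vs. CD, CDmetf vs. CD, HFDmetf vs. HFD and HFDmetf vs. CDmetf. Trem2, a lipid-sensing receptor of macrophages, ranged from 0 to 3.59 CPM in CDmetf and from 1.33 to 15.7 CPM in HFDmetf (logFC = 2.04, SE 0.621, unadjusted p = 0.00353, FDR = 0.582). Fcer1g, the shared signalling chain of Fc receptors, and Itgax, which encodes CD11c, had logFC values of 0.61 and 0.60 in HFDmetf vs. HFD (FDR = 0.64 for both), and Stab1, a scavenger receptor, 0.39 in HFDmetf vs. CDmetf (FDR = 0.599).

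Among 11 genes of resident and muscularis macrophages 6 were tested, and Timd4, Folr2, Cd209f, Cd209d and Cbr2 were too low. Gas6, a bridging molecule for the uptake of dying cells, had a logFC of -0.42 in HFD vs. CD (unadjusted p = 0.0199, FDR = 1). Bmp2, which muscularis macrophages supply to enteric neurons, and Cd4 had logFC values of -0.47 and 0.62 in CDmetf vs. CD (FDR = 0.94 for both), and F13a1, the coagulation factor XIII A chain, 1.15 in HFDmetf vs. HFD (FDR = 0.64). Of 12 growth and transcription factor genes 11 were tested. Csf1, a ligand of the Csf1r receptor, ranged from 8.57 to 15.5 CPM in HFD and from 14.9 to 27.3 CPM in HFDmetf (logFC = 0.55, SE 0.179, unadjusted p = 0.00541, FDR = 0.64). Csf2ra had a logFC of 0.48 in the same contrast, and Tgfb1 and Tgfbr2 0.52 and 0.40 in CDmetf vs. CD, all with FDR values of 0.64 or more.

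Of 12 monocyte recruitment genes 6 were tested, since Ccl2, Ccl7, Ccl8, Ccl12, Ccl3 and Ccl4 did not pass the filter. Ccr2, the receptor that guides monocytes out of the marrow, had an interaction logFC of 0.71 (unadjusted p = 0.114), Ccr1 a logFC of 0.59 in CDmetf vs. CD (unadjusted p = 0.0537) and Ly6c2 one of 0.65 in HFDmetf vs. HFD (unadjusted p = 0.13). Of 14 other complement genes 11 were tested, and 10 and 9 of them had a logFC above 0 in CDmetf vs. CD and in HFDmetf vs. HFD, with medians of 0.45 and 0.46. The receptor gene C3ar1 ranged from 4.28 to 10.1 CPM in HFD and from 7.08 to 30.8 CPM in HFDmetf (logFC = 0.95, SE 0.324, unadjusted p = 0.0081, FDR = 0.64). C5ar1 and Cfp, which encodes properdin, had logFC values of 0.98 and 0.74 in CDmetf vs. CD (FDR = 0.94 for both).

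Of 15 cytokine and activation genes 4 were tested, and Tnf, Il1b, Il6, Il10, Il23a, Il12b, Arg1, Retnla, Chil3, Cd80 and Trem1 were too low. Nos2, which intestinal epithelium also expresses, had a logFC of -1.43 in HFDmetf vs. CDmetf (unadjusted p = 0.0199, FDR = 0.599), and Il10rb -0.45 in HFDmetf vs. HFD (FDR = 0.64). Cd86 and Il10ra had logFC values of 0.67 and 0.22 in CDmetf vs. CD (FDR = 0.94 and 0.99).

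Markers of other white blood cells differed in how far they followed the members. The B-cell markers had a mean z-score whose correlation with that of the members was -0.03, and their fold changes had opposite signs on the 2 diets. All 13 tested had a logFC above 0 in CDmetf vs. CD (median 2.05) and below 0 in HFDmetf vs. HFD (median -2.02). Their summed level ranged from 23.4 to 114 CPM in CD, 31.9 to 544 in CDmetf, 34.3 to 443 in HFD and 24 to 58 in HFDmetf. The interaction logFC was -6.68 for Fcmr, -5.32 for Ms4a1 and -3.79 for Cd79b, each with an FDR of 0.547. T-cell markers had a correlation of -0.05 with the members, and Cd2, Trbc2 and Lck had interaction logFC values of -3.00, -2.20 and -2.22 and Trac a logFC of -1.96 in HFDmetf vs. CDmetf (lowest FDR = 0.599). Plasma cell markers had a correlation of 0.04, with Sdc1 at -0.30 in HFDmetf vs. CDmetf, Prdm1 at -0.87 in the interaction, Jchain at 0.47 in HFD vs. CD and Derl3 at 0.19 in CDmetf vs. CD (lowest FDR = 0.63).

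Dendritic cell markers (5 of 8 tested) had a correlation of 0.22, and Zbtb46, Itgae, Flt3 and Xcr1 had logFC values of 0.38, -0.19, 0.30 and -0.24 in the contrasts of their smallest p (lowest FDR = 0.661). Of the neutrophil markers 1 of 7, Csf3r, was tested (logFC = 0.22 in HFDmetf vs. CDmetf), which had a correlation of 0.49 with the members, and S100a8, S100a9 and Ly6g were too low. Of the eosinophil and mast cell markers Siglecf (-0.59 in HFDmetf vs. HFD) and Mcpt1 (-1.32 in CDmetf vs. CD) were tested, with a correlation of -0.31. Of 4 markers of peritoneal macrophages 1 was tested, Gata6, which was measured at 61.1 to 137 CPM and is also expressed by intestinal epithelium, with a logFC of -0.33 in HFDmetf vs. HFD (unadjusted p = 0.0476, FDR = 0.64).

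The structural cells of the tissue piece differed in how far they followed the members. The correlation of the mean z-scores with that of the members was 0.47 for adipocyte, 0.42 for smooth muscle, -0.18 for Paneth cell, -0.03 for ileal and -0.44 for epithelial markers. Of the adipocyte markers Cfd and Retn had logFC values of -4.20 and -3.38 in HFD vs. CD (FDR = 1), Lep 3.69 in HFDmetf vs. CDmetf (FDR = 0.599) and Fabp4 2.39 in the interaction (FDR = 0.799). Of the smooth muscle markers Myh11 and Lmod1 had logFC values of -0.81 and -0.74 in HFD vs. CD, and Cnn1 and Actg2 0.45 and 0.44 in HFDmetf vs. HFD. Epcam had a logFC of -0.48 in HFDmetf vs. CDmetf, and the epithelial genes Krt20, Alpi and Vil1 -0.67, -0.70 and -0.44 in HFDmetf vs. HFD. The Paneth cell genes Defa24, Ang4 and Itln1 had logFC values of -0.41, -0.52 and -0.38 in CDmetf vs. CD and Mmp7 -0.35 in HFDmetf vs. CDmetf. The ileal genes Slc10a2, Slc51a and Slc51b had logFC values of -1.93, -0.59 and -0.50 in HFDmetf vs. CDmetf and Fabp6 0.41 in CDmetf vs. CD. The summed smooth muscle, adipocyte and epithelial markers thus differed between libraries of 1 group, and their part in the levels of the macrophage genes was not tested beyond the covariates given above.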

How the data were processed

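RNA of the distal small intestine of 24 mice was sequenced after rRNA depletion with a directional kit as paired reads of 100 bases. By the study's methods, Trimmomatic 0.39 trimmed the reads (window 5, quality 25, minimum length 30) and STAR 2.5.3a mapped them to GRCm38 and made the raw read counts per gene that the authors deposited. The annotation release and counted strand are not given in the sources used here. All 55536 identifiers matched GENCODE M21. Reads that fit several places equally well are not counted in this mode, which bears on Lyz2 and Lyz1. Without the strand, reads of Cx3cr1 and Csf1r cannot be told apart from those of the genes they overlap on the other strand, Gm33858 (78 exon bases) and Hmgxb3 (873).

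Samples were grouped from their labels. The edgeR 4.0.16 package (R 4.3.3) was used to filter genes (filterByExpr), to apply TMM scaling (a trimmed mean of M-values) to the libraries and to fit a quasi-likelihood model of all libraries, in which the terms were group, labelled sex and replicate number (17 residual degrees of freedom), with Benjamini-Hochberg adjustment over 14076 genes and a threshold of 0.05. Replicate number was the block since the study used a randomized block design. The log2 CPM deviations of same-numbered libraries of different groups had a mean correlation of 0.13 (72 pairs) against -0.0642 for different numbers (144 pairs), and whether the numbers are the blocks is not stated in the labels. Correlations and scores used log2 CPM with a prior count of 1. A level of 3 counts corresponded to 0.0705 to 1.71 CPM, a limit of counting error only. Alternatives included DESeq2 1.42.0, limma-voom (limma 3.58.1), RLE scaling, other filters, robust quasi-likelihood, marker covariates and left-out libraries. The scripts were tested on simulated data.

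The members and lists were chosen with earlier results of these data known. Named were all members, Lyz1, up to 4 genes of each other list with the smallest unadjusted p in the contrasts and interaction, and the 10 genes most like the members. Faim3 and Fcmr are 1 gene, counted once. Where a gene's count is called too low, it failed the filter.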

Additional observations from a re-analysis of the deposited data

Results flagged for a closer look

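In 2 of the 40 combinations of a member and a group of 6, 1 library stood far from the other 5, which is no more than chance gives in about 1 in 20 groups. Cd68 was measured at 13.9 CPM in CD M3 and at 4.41 to 5.7 CPM in the other CD libraries. CD M3 is also the library in which 10 genes took 85.4% of the reads. Lyz2 was measured at 77.1 CPM in CD F2 and at 42 to 52.2 CPM in the other CD libraries. No interaction of diet and metformin and no difference of a contrast between the labelled sexes had an FDR under 0.05 for a member.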

How the results depend on the processing

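No member had an FDR under 0.05 in any contrast, the interaction or the sex term under any of the 16 settings other than leaving out 1 library or in any of the 24 fits that left out 1 library in turn, where the count of called members was 0 to 0. In limma-voom and DESeq2 the count was also 0. Few genes of any kind were called: in the main model 0 of 14076 in each contrast and the interaction, and 1 in the sex term. DESeq2 called 13 of 14076 genes in HFD vs. CD, 4 in CDmetf vs. CD, 4 in the interaction and 22 in the sex term. It called 0 in HFDmetf vs. CDmetf and in HFDmetf vs. HFD. The differences of the contrasts between the sexes were fitted only with and without the replicate block and without both HFD M2 and HFD F2 as labelled, where 0 members were called. Of 45 fold changes of members followed through the settings, 22 changed sign at least once, 8 of them when 1 library was left out, and the cause was not tested. These 45 are only a part of the member results, and ranges given below also crossed 0 for several members in the interaction. The depth and adipocyte settings were chosen after the data were seen.

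With only the libraries shallower by reads, the logFC in HFD vs. CD was -0.65 for Cx3cr1, -0.33 for Csf1r, -0.15 for C1qa, -0.10 for C1qb, -0.18 for C1qc, -0.63 for Mrc1 and -1.0 for Cd163, and in CDmetf vs. CD -0.25 for Adgre1, -0.53 for Cx3cr1, -0.07 for Csf1r, -0.07 for C1qb, -0.01 for C1qc, -0.26 for Mrc1 and -0.61 for Cd163. In the same setting it was 0.09 for Lyz2 in HFDmetf vs. CDmetf and 0.00 for C1qc in male vs. female. With only those shallower by effective size it was, in HFD vs. CD, -0.36 for Cx3cr1, -0.14 for Csf1r, -0.04 for C1qc, -0.56 for Mrc1 and -1.18 for Cd163, in CDmetf vs. CD, -0.26 for Adgre1, -0.31 for Cx3cr1, -0.22 for Mrc1 and -0.74 for Cd163, 0.05 for Lyz2 in HFDmetf vs. CDmetf and -0.01 for C1qc in male vs. female. With depth class by reads as a covariate it was -0.04 for Cd68 in CDmetf vs. CD and -0.06 for Mrc1 in HFD vs. CD. Mrc1 in HFD vs. CD was also at -0.03 without the replicate block and at 0.00 in DESeq2 and with depth class by effective size. In limma-voom, Cx3cr1 was at 0.09 in HFDmetf vs. HFD and Cd163 at 0.16 in HFDmetf vs. CDmetf, and with at least 10 counts in every library Cx3cr1 was at 0.00 in HFDmetf vs. HFD. With the B-cell score, Mrc1 was at -0.08 in HFDmetf vs. CDmetf and Cd163 at -0.15 in HFDmetf vs. HFD, where Cd163 was at -0.08 with the smooth muscle score and at -0.09 without the library labelled HFD M2 and that labelled HFD F2.

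Leaving out 1 library gave ranges that crossed 0 for Cx3cr1 (-0.02 to 0.36), Mrc1 (-0.21 to 0.26) and Cd163 (-0.46 to 0.36) in HFD vs. CD, Cx3cr1 (-0.21 to 0.16) and Cd163 (-0.01 to 0.79) in HFDmetf vs. HFD, Cd163 (-0.38 to 0.08) in HFDmetf vs. CDmetf, and Cd68 in CDmetf vs. CD (-0.02 to 0.55), and in the interaction for Cd68 (-0.05 to 0.53), Adgre1 (-0.01 to 0.41), Csf1r (-0.29 to 0.03), C1qa (-0.17 to 0.03), Mrc1 (-0.07 to 0.39) and Cd163 (-0.48 to 0.34). The count of members higher at an unadjusted p under 0.05 then ranged from 0 to 3 in HFD vs. CD and 1 to 4 in HFDmetf vs. CDmetf. It ranged from 1 to 6 in HFDmetf vs. HFD (6 without HFD F3, 1 without HFD M2) and 2 to 5 in CDmetf vs. CD. Over all genes, in either direction, 2331 of 14382 had such a p in HFDmetf vs. HFD without HFD F3. There were 796 of 14357 without HFD M2 and 931 of 14076 with all libraries. Without the replicate block the member counts were 0, 3, 2 and 1, where the blocked fit gave 0, 2, 3 and 3. Of all 13781 genes tested without the block, 519, 843, 760 and 502 had such a p in either direction. The fits limited to the 12 libraries compared were not run for the interaction and the sex term. Depth limits Cd163 most, with as few as 3 reads in a library.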
